A study of Mus musculus with 8 samples.

Results

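This account concerns 10 genes of goblet cell mucus, Muc2, Tff3, Clca1, Fcgbp, Zg16, Agr2, Tpsg1, Klk1, Rep15 and Muc13, as measured by RNA-seq in purified Paneth cells (PCs) of the mouse small intestine. They were taken from the count table by matching Ensembl IDs to these symbols in GENCODE M39, which found all 10 among 55414 IDs, and all 10 were among the 11929 genes that passed the filter on low counts. The table held 4 libraries of the genotype labelled DT TG, from mice whose PCs express diphtheria toxin (TG), and 4 libraries of wild type mice (WT). The series is titled as a profile after depletion of mature PCs, so the TG libraries hold the cells that the PC sort recovered from such mice, and no measure of the depletion was analysed here. The toxin stops protein synthesis by inactivating an elongation factor. The sources used here do not name the promoter that drives it, the age of the mice or whether the sorted TG cells themselves made toxin. Both groups went through the same FACS procedure, which the study describes for C57BL/6J mice and which keeps crypt cells high in CD24 and C-kit and removes cells with CD31, CD45 or TER119.

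Goblet cells and PCs are the main secretory cells of the small intestinal epithelium, and they share a progenitor and several transcription factors. Goblet cells release mucus, a gel built from the giant mucin MUC2 and a small number of abundant partner proteins, which keeps bacteria away from the epithelium. PCs at the crypt base are known above all for antimicrobial granules. The study describes its PC sorts as nearly free of other cells. Mucus gene RNA in such a sort does not by itself show goblet cells or cells between both fates. Which of the sorted cells made it was not tested.

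The mucus genes were present in every library. With the group as the only term, 1 of the 10 genes passed the test, Muc13, a membrane-bound mucin, with TG at 0.687 times the WT level. Of all tested genes, 8.26% passed as higher and 9.65% as lower in TG, so 1 of 10 is near the share of all genes. Agr2, a disulfide isomerase that helps MUC2 to fold, was lower in all 4 TG libraries than in any WT library when scaled by TMM factors, but not when scaled by total counts, and had an edgeR adjusted p of 0.0532. With a covariate for Y-linked counts or a replicate block, Agr2 passed as well, with edgeR adjusted p of 0.0071 and 0.00368. It was called in 5 of 19 alternative settings, but not by DESeq2 or limma voom, with adjusted p of 0.0647 and 0.0589. For the secreted components Muc2, Tff3, Clca1, Fcgbp and Zg16, the group means differed in CPM by less than the larger of the group SDs, and none passed the test with the group as the only term.

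Total counts ranged from 13107397 to 16218434 per library. Counts from 4 Y-linked genes were 0 in replicates 1 and 2 of both groups and 897 to 1564 in replicates 3 and 4, so each group held 2 libraries of either kind, and values within each kind are given below. The PC gene Lyz1 was at 175230 ± 27280 CPM in TG and 166391 ± 25791 CPM in WT (SD, n = 4 each), but 8 of 10 PC markers were fitted lower in TG with 4 called lower and 1 called higher by edgeR, as given below. Of all 11929 tested genes, 5814 were fitted lower. CPM is the usual depth-scaled count, here with TMM factors, which correct for differences in composition between libraries. The study describes its sorts as coming from individual mice, while the labels only number the replicates, so that p-values measure the spread between these libraries. In bulk RNA, fewer cells of a type and less RNA per cell cannot be told apart.

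Summed over the 10 genes, the share of the counts was 0.737 ± 0.0946% for TG libraries and 0.828 ± 0.119% for WT libraries (SD, n = 4 per group). Single libraries ranged from 0.651% in TG-2 (95% Wilson interval 0.647 to 0.655%) to 0.948% in WT-2 (0.943 to 0.953%). These intervals cover counting error only. The means differed by less than the SD of WT. Over the counts outside the 28 alpha-defensin genes the share was 1.02 ± 0.117% against 1.17 ± 0.12%, a difference of -0.16 percentage points that was larger than both SDs, and with counts divided by exon length it was 0.377 ± 0.077% against 0.387 ± 0.0579% (SD, n = 4 per group). No test was run on these shares.

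To show the DNA in front of the members whose promoter sequence was at hand and that are compared most below, the 250 bases before the RefSeq start are given for Muc2, the gel-forming mucin, and for Muc13 and Agr2, whose TG and WT values did not overlap with TMM factors. RefSeq promoter windows were found for 6 of the 10 genes, not for Tff3, Clca1, Zg16 or Rep15. Positions are on GRCm39, where each window occurred once on its chromosome, and all 3 genes lie on the plus strand. Muc2 is at chr7:141276333-141276582, Muc13 at chr16:33614157-33614406 and Agr2 at chr12:36042674-36042923. The GENCODE start of Agr2 lies inside the end of its window. Capitals mark matches to the short motifs named below.
Muc2: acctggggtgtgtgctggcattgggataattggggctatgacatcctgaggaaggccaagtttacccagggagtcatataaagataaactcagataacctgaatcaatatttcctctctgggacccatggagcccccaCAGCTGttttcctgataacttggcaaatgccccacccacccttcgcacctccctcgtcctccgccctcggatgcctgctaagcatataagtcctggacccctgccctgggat
Muc13: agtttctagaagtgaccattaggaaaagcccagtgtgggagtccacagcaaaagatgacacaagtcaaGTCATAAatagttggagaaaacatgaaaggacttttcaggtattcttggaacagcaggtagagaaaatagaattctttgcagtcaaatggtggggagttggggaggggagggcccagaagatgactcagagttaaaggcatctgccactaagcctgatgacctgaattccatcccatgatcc
Agr2: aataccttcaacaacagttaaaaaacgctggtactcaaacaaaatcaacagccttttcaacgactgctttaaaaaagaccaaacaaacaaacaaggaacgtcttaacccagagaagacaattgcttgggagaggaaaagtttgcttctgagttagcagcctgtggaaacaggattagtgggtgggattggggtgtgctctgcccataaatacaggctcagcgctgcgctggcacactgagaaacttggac

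Both strands were searched for 6 motifs, which were TGACGTG (an XBP1 site), CCGGAT (an ETS core as used by SPDEF), CAGCTG (an E-box as used by ATOH1), TGTTTAC (a forkhead site), CAAAGTCCA (an HNF4 site) and TTATNAC (a CDX site). Muc2 held CAGCTG at position -112 from the start, a motif found in 13% of 32851 windows of the same length. Muc13 held TTATNAC on the opposite strand at position -182, found in 7.21% of windows. A second RefSeq start of Muc13, not printed, held CAAAGTCCA, and the Fcgbp window held CAGCTG. The Agr2 window held 0 matches. The shares of all windows were 1.65% for TGACGTG, 4.94% for CCGGAT, 3.17% for TGTTTAC and 0.384% for CAAAGTCCA. These are matches of letters in a window and do not show binding.

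To compare levels between genes, CPM were divided by exon length in kilobases. Tff3, which encodes a small trefoil peptide that stabilizes mucus, came first with 1436 CPM per kilobase on average over the 8 libraries, at rank 26 among all matched genes. Agr2 (943), Muc13 (554), Klk1 (253) and Muc2 (207 CPM per kilobase) followed, and Muc2 had rank 67. Fcgbp was at 75.8, Rep15 at 34.7, Zg16 at 31, Clca1 at 16.3 and Tpsg1 at 16.2 CPM per kilobase. For comparison, Lyz1 was at 134180 CPM per kilobase, with rank 2. The order was the same in all 8 libraries for Agr2 above Muc13, Muc13 above Klk1, Muc2 above Fcgbp and Fcgbp above Rep15. Tff3 was above Agr2 in 7 libraries, Klk1 above Muc2 in 6, Rep15 above Zg16 in 6 and Zg16 above Clca1 in 7. Clca1 was above Tpsg1 in only 2 libraries, so that these neighbours in the order were not separated. The group means of Rep15 and Zg16 were 32.6 and 44.5 CPM per kilobase in TG and 36.7 and 17.5 in WT. Only TG-3 and TG-4 had Zg16 above Rep15, so the order was not shared by all TG libraries. Clca1 and Tpsg1 were at 14.2 and 15 CPM per kilobase in TG and at 18.4 and 17.3 in WT.

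Calls below are from edgeR, with p adjusted over all 11929 genes, and a gene is called at an adjusted p below 0.05. By this rule 8.26% of all tested genes were higher and 9.65% were lower in TG. With total counts in place of the factors, the numbers of all genes called changed from 985 higher and 1151 lower to 787 higher and 262 lower, with a median log2 fold change of 0.12. Among the 10 mucus genes 0 were higher and 1 was lower on both scales. At an unadjusted edgeR p below 0.05, 1 was higher (Klk1) and 2 were lower (Agr2 and Muc13). In either direction, 3943 of all 11929 tested genes had such a p. DESeq2 and limma voom each called 0 of the 10 higher and 1 lower, which was Muc13. The median log2 fold change of TG over WT was -0.19 over the 10 genes and 0.01 over all tested genes. Ranges of CPM did not overlap for 2 of the 10 genes, both lower in TG, where 12.0% of all tested genes were lower without overlap. Scaled by total counts, which was added after the data were seen, this held for 1 of the 10, Muc13, and for 3.91% of all tested genes.

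**Figure D1:**
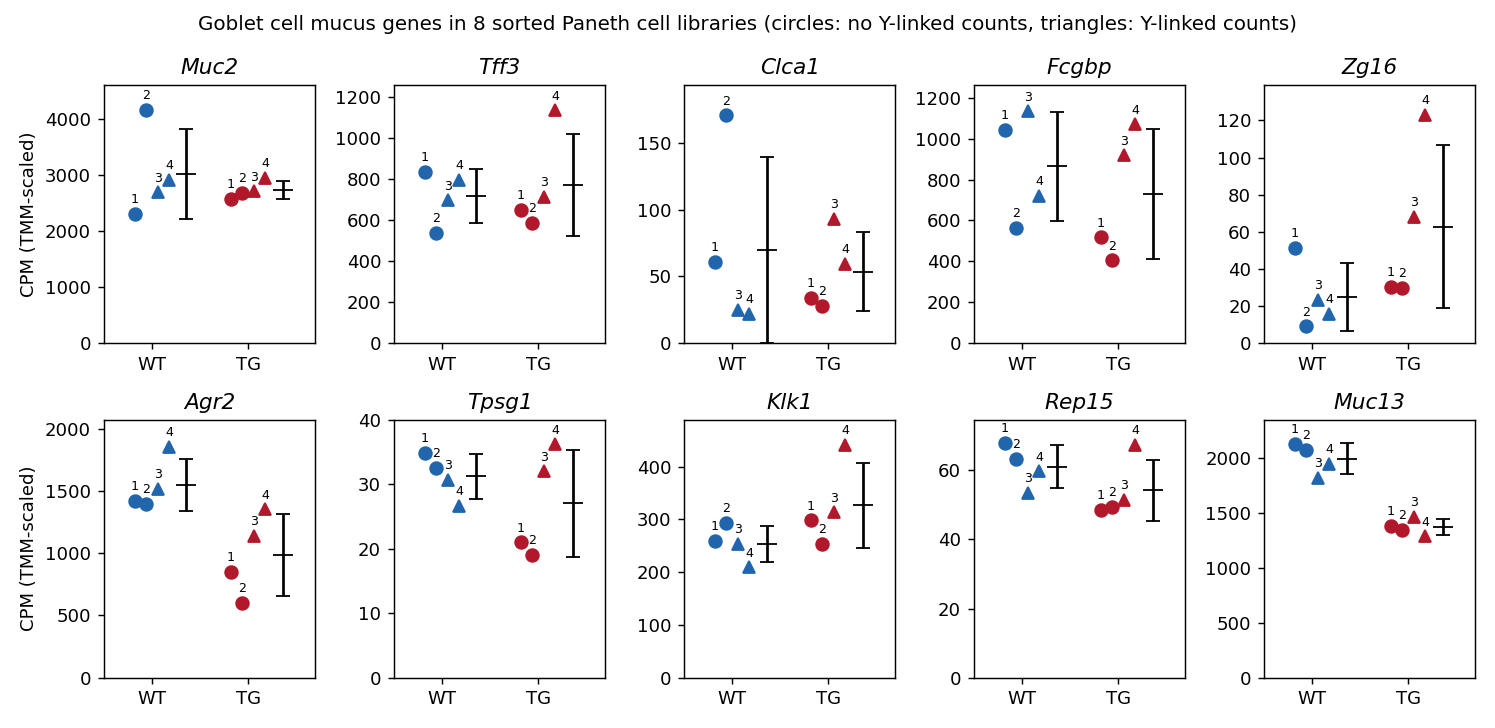
Level of each of the 10 mucus genes in CPM, scaled by TMM factors, in each WT (blue) and TG (red) library, with the replicate number beside each point and the mean ± SD (n = 4) in black. On this scale all 4 TG values lie below all 4 WT values for Muc13 and Agr2 (for Agr2 not by total counts), and WT-2 stands highest for Muc2 and Clca1.

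Muc2 encodes the gel-forming mucin that makes up the mucus layer (ENSMUSG00000025515, GRCm39 chromosome 7, 141276583 to 141308430, plus strand). It was at 2571, 2687, 2711 and 2953 CPM in TG-1 to TG-4 and at 2309, 4178, 2693 and 2917 CPM in WT-1 to WT-4. The TG libraries were close together, with a coefficient of variation of 5.87%, while WT held both the highest and the lowest library and had 26.8%. The log2 fold change was -0.15 ± 0.16 (SE), with a 95% interval of -0.49 to 0.20 and an edgeR adjusted p of 0.558. Without WT-2 the log2 fold change was 0.05.

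Tff3 (ENSMUSG00000024029, chromosome 17, 31344280 to 31348620, minus strand) was at 647, 583, 710 and 1133 CPM in TG-1 to TG-4 and at 832, 536, 694 and 795 CPM in WT-1 to WT-4. TG-4 was the highest and WT-2 the lowest of all libraries, and the groups overlapped. The log2 fold change was 0.10 ± 0.21 (SE), with an interval of -0.35 to 0.56 and an edgeR adjusted p of 0.761. It was -0.15 without TG-4.

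Fcgbp encodes a large protein that binds to MUC2 in the mucus gel (ENSMUSG00000047730, chromosome 7, 27770661 to 27820287, plus strand). Its values were 517, 404, 919 and 1071 CPM in TG-1 to TG-4 and 1042, 563, 1134 and 719 CPM in WT-1 to WT-4. Each group held high and low libraries, and their ranges overlapped over most of their length. The log2 fold change was -0.25 ± 0.37 (SE), with an interval of -1.12 to 0.62 and an edgeR adjusted p of 0.683. With 1 library left out it ranged from -0.50 (without TG-4) to -0.05 (without TG-2).

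Clca1 encodes a secreted metalloprotease of mucus (ENSMUSG00000028255, chromosome 3, 144709578 to 144738537, minus strand). It was at 33.8, 28, 93.4 and 59.3 CPM in TG-1 to TG-4 and at 60.9, 171, 25 and 21.5 CPM in WT-1 to WT-4. The highest and the lowest value were both from WT, and counts ranged from 289 to 2451 per library. On the log2 scale TG differed from WT by -0.37 ± 0.79 (SE), with an interval of -2.30 to 1.56 and an edgeR adjusted p of 0.785. This interval holds changes of either sign, and without WT-2 the value was 0.59. Among the other genes of the family, Clca3b had more counts than Clca1, at 559 ± 94.7 CPM in TG and 482 ± 79.6 CPM in WT (SD, n = 4 each). Of the 5 tested family members, Clca1 included, 0 were called by edgeR. An unadjusted edgeR p below 0.05 was found for 2 of them (Clca3a1 and Clca4b, named after their values were seen) and for 3943 of all 11929 tested genes.

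Zg16 encodes a small lectin-like protein of mucus that binds to bacteria (ENSMUSG00000049350, chromosome 7, 126649302 to 126686500, minus strand). Its values were 30.2, 29.5, 68 and 123 CPM in TG-1 to TG-4 and 51.1, 8.91, 23.2 and 15.6 CPM in WT-1 to WT-4. The means were 62.7 ± 44.2 CPM in TG and 24.7 ± 18.5 CPM in WT (SD, n = 4 each), and WT-1 lay above 2 of the TG libraries. The log2 fold change was the highest of the 10, at 1.35 ± 0.72 (SE), but its interval of -0.41 to 3.11 spanned 0 and its edgeR adjusted p was 0.25. It was 0.80 without TG-4 and 1.97 without WT-1.

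Agr2 (ENSMUSG00000020581, chromosome 12, 36042904 to 36054086, plus strand) was at 851, 602, 1136 and 1352 CPM in TG-1 to TG-4 and at 1423, 1397, 1515 and 1857 CPM in WT-1 to WT-4. The highest TG library thus lay just below the lowest WT library. By total counts, TG-3 and TG-4 had 1241 and 1300 CPM and lay above WT-1 with 1201 CPM, so that the groups overlapped. The means were 985 ± 328 CPM and 1548 ± 212 CPM (SD, n = 4 each). TG over WT came to a log2 value of -0.65 ± 0.21 (SE), with an interval of -1.11 to -0.19, and the edgeR adjusted p of 0.0532 was above the threshold. Its adjusted p ranged from 0.0037 to 0.26 over 19 alternative settings, and it was called in 5 of them. The paralog Agr3 had only 2.72 ± 0.761 CPM in TG and 1.38 ± 0.626 CPM in WT (SD, n = 4 each), with an edgeR adjusted p of 0.0555.

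Klk1 encodes tissue kallikrein, a secreted serine protease (ENSMUSG00000063903, chromosome 7, 43874725 to 43879048, plus strand). It was at 298, 253, 313 and 441 CPM in TG-1 to TG-4 and at 259, 293, 254 and 209 CPM in WT-1 to WT-4. TG-4 was the highest library and WT-4 the lowest, and TG-2 lay within the WT values. The fitted log2 difference was 0.36 ± 0.16 (SE), with an interval of 0.02 to 0.70 and an edgeR adjusted p of 0.127. It was 0.18 without TG-4. Its Klk1b paralogs are close in sequence and could share reads with it. Of these, 10 were listed at 0 in all libraries, and the highest, Klk1b5, had 13 counts over 8 libraries.

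Tpsg1 encodes a membrane-anchored tryptase (ENSMUSG00000033200, chromosome 17, 25588235 to 25593417, plus strand). It was at 21, 19, 32 and 36.2 CPM in TG-1 to TG-4 and at 34.9, 32.6, 30.7 and 26.7 CPM in WT-1 to WT-4. TG-1 and TG-2 were below all WT libraries, whereas TG-3 and TG-4 were within or above them. On the log2 scale TG differed from WT by -0.21 ± 0.19 (SE), with an interval of -0.63 to 0.22 and an edgeR adjusted p of 0.485. With 1 library left out it ranged from -0.37 (without TG-4) to -0.07 (without TG-2). Tryptases are also mast cell products. The 9 mast cell genes summed to at most 0.766 CPM in any library, and 7 of them were listed at 0.

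Rep15 encodes an effector of the small GTPase RAB15 (ENSMUSG00000040121, chromosome 6, 146934082 to 146935743, plus strand). Its values were 48.6, 49.5, 51.4 and 67.4 CPM in TG-1 to TG-4 and 68, 63.2, 53.4 and 59.7 CPM in WT-1 to WT-4. All WT libraries lay above TG-1 to TG-3, while TG-4 was close to the top of WT. By total counts WT-4, at 53.4 CPM, lay below TG-2 and TG-3, at 53.7 and 56.2 CPM, and TG-4 was the highest of all at 64.8 CPM. TG over WT came to a log2 value of -0.17 ± 0.11 (SE), with an interval of -0.41 to 0.07 and an edgeR adjusted p of 0.301. It was -0.29 without TG-4.

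Muc13 encodes a membrane-bound mucin of the apical surface that is known from enterocytes as well as goblet cells (ENSMUSG00000022824, chromosome 16, 33614407 to 33640304, plus strand). It was at 1380, 1350, 1464 and 1287 CPM in TG-1 to TG-4 and at 2134, 2077, 1821 and 1951 CPM in WT-1 to WT-4. Every TG library was below every WT library, and the spread within each group was small. The means were 1371 ± 73.5 CPM in TG and 1996 ± 139 CPM in WT (SD, n = 4 each). The fitted log2 difference was -0.54 ± 0.11 (SE), with a 95% interval of -0.77 to -0.31 and an edgeR adjusted p of 0.00463. An antisense RNA, Gm15657, shares 305 exon bases with Muc13 and had 654 counts over all 8 libraries, against at least 16933 counts of Muc13 in each library. The sources used here do not give the strand setting of the counting.

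Other mucins did not move in 1 direction. Of 14 further mucin and trefoil genes, 3 were tested. Muc4, also membrane-bound, was lower in TG, at 23.1 ± 2.53 against 40 ± 8.98 CPM (SD, n = 4 each), or -0.79 ± 0.14 on the log2 scale (SE, edgeR adjusted p = 0.00316). Muc17, a membrane mucin of the brush border, was higher, at 23.1 ± 3.83 against 15.7 ± 3.72 CPM (SD, n = 4 each), or 0.56 ± 0.17 on the log2 scale (SE, edgeR adjusted p = 0.0417). Muc3a had a log2 fold change of -0.26 ± 0.25 (SE) and an edgeR adjusted p of 0.525. The gel-forming mucins of other organs, Muc5ac and Muc5b, had 1 and 0 counts over all 8 libraries.

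**Figure D2:**
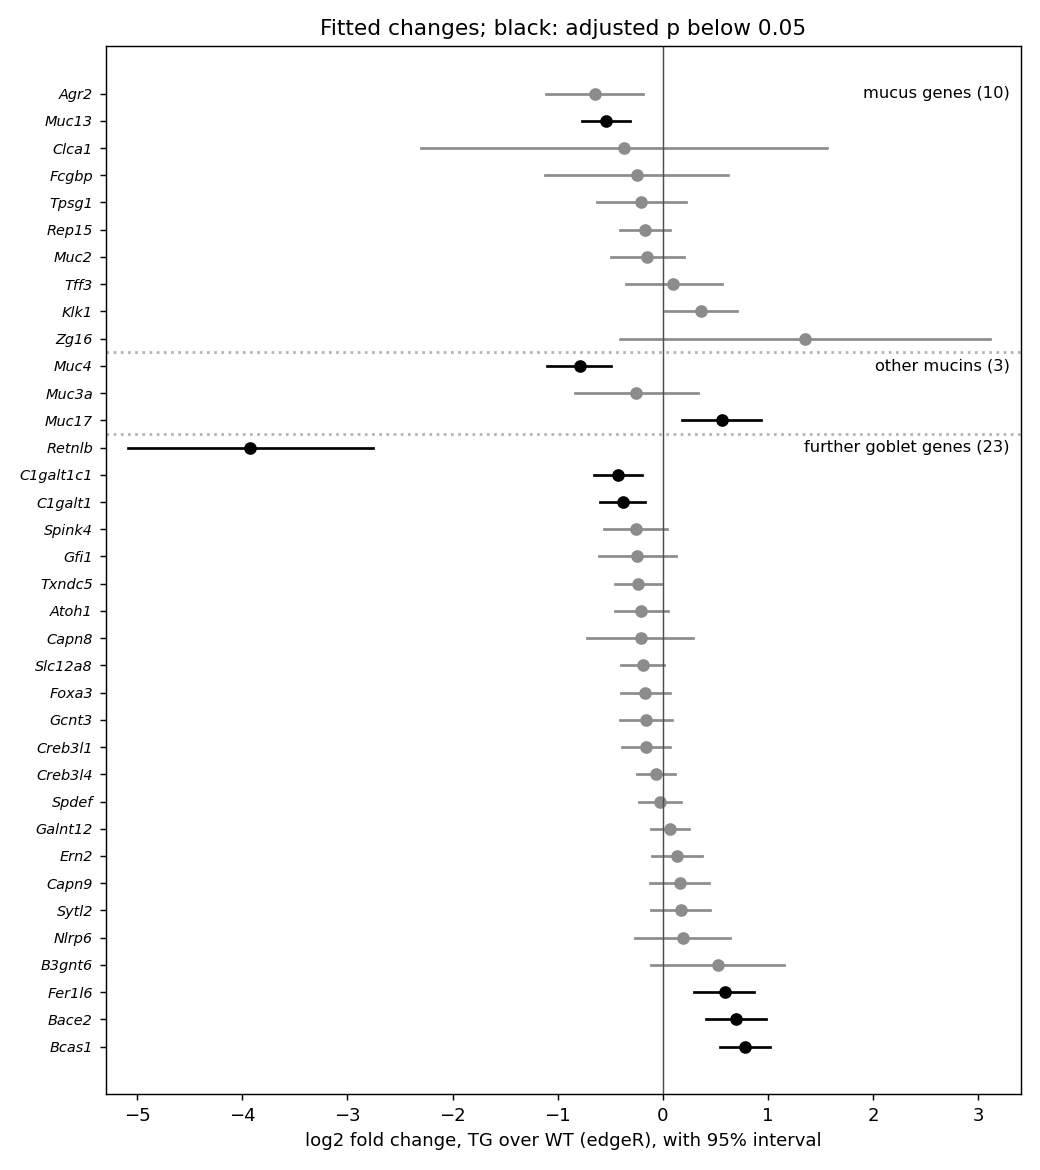
Log2 fold change of TG over WT from edgeR with its 95% interval, for the 10 mucus genes, the 3 other tested mucins and 23 further goblet genes. Black marks genes with an adjusted p below 0.05, and Muc13 is the single black point among the 10.

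Of 25 further genes of goblet cells or of mucin synthesis, 23 were tested, 3 were higher and 3 were lower in TG, with a median log2 fold change of -0.16, beside 8.26% higher and 9.65% lower of all tested genes. With total counts 3 were higher and 1 was lower. The higher genes were Bcas1, at 49.3 ± 7.45 against 28.7 ± 3.06 CPM, Bace2, at 39.7 ± 6.05 against 24.5 ± 4.19 CPM, and Fer1l6, at 14.9 ± 0.954 against 9.93 ± 1.78 CPM (SD, n = 4 each). Their edgeR adjusted p were 0.000937, 0.00403 and 0.00893. The lower genes were Retnlb, an antibacterial product of goblet cells, and C1galt1 and its chaperone C1galt1c1, which build the core of mucin O-glycans. Retnlb was at 3.57, 2.67, 5.08 and 2.2 CPM in TG-1 to TG-4 and at 69.9, 79.6, 31.2 and 29.9 CPM in WT-1 to WT-4, and every TG library was far below every WT library. Its edgeR fold change was -3.93 ± 0.49 on the log2 scale (SE), with an adjusted p of 0.00384. C1galt1 was at 151 ± 15.7 against 197 ± 18.4 CPM and C1galt1c1 at 123 ± 7.8 against 165 ± 25.2 CPM (SD, n = 4 each), with edgeR adjusted p of 0.0179 and 0.0158. The lineage factors Spdef, Foxa3, Atoh1 and Gfi1, which act in secretory cells, had log2 fold changes of -0.03, -0.17, -0.21 and -0.25 and were not called, with edgeR adjusted p of 0.867, 0.301, 0.238 and 0.329. Spink4, a secreted peptide gene shared by goblet cells and PCs, was at 4752 ± 388 CPM in TG and 5698 ± 867 CPM in WT (SD, n = 4 each), with an edgeR adjusted p of 0.212.

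Some markers of enterocytes, PCs and stem cells differed between TG and WT, and those of the other cell types listed here were not called. For comparison, 8.26% of all tested genes were higher and 9.65% were lower. Of 11 enterocyte genes, 4 were called higher by edgeR and 0 lower, and the median log2 fold change was 1.56. They were Apob, Alpi, Mttp and Apoa4, at 2.1, 5.9, 1.51 and 6.94 times WT, with edgeR adjusted p of 0.00309, 0.00463, 0.0057 and 0.0483. The values of Alpi and Apoa4 in WT were low, at 0.32 to 1.79 and 0.24 to 2.6 CPM. The summed level of all 11 was 822 to 1052 CPM in TG and 711 to 834 CPM in WT, most of it from Anpep and Vil1, which were not called. The other 9 summed to 118 to 259 CPM in TG and 54.4 to 104 CPM in WT, a split made after their values were seen. Of 10 PC markers, 4 were lower and 1 was higher. Mptx2 was at 0.393, Mmp7 at 0.664 and Ang4 at 0.672 times WT, with edgeR adjusted p of 0.00116, 0.0179 and 0.037, and Itln1 was at 0.935 with 0.743. Among these markers, Cd24a, the gene of a marker used in the sort, was at 1928 ± 118 CPM in TG and 2552 ± 255 CPM in WT, and Kit, the gene of the other marker, was at 304 ± 19.8 and 217 ± 17.5 CPM (SD, n = 4 each). Their edgeR adjusted p were 0.03 and 0.00352. Of 6 stem cell genes 2 were higher by edgeR, Axin2 and Slc12a2 at 1.44 and 1.32 times WT, and 1 was lower, Smoc2 at 0.787 times WT. By edgeR, 0 of 8 proliferation, 0 of 4 tested enteroendocrine and 0 of 6 tested tuft genes were called. Each of these lists had 0 at an unadjusted p below 0.05, where 3943 of all 11929 tested genes had such a p. Immune genes summed to 13.1 to 32.9 CPM in TG and 17.9 to 24.7 CPM in WT. The part of these differences in the values of Muc13 and Agr2 was not tested.

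The mucus genes were among the more variable genes between libraries of the same genotype. The within-group SD of log2 CPM was 1.12 for Clca1, 1.02 for Zg16 and 0.58 for Fcgbp, against a median of 0.13 over the 3861 tested genes at least as abundant as the lowest member. Clca1, Zg16 and Fcgbp lay at or above the percentile 99.4 of these genes. Agr2, Tff3 and Tpsg1 had SDs of 0.39, 0.36 and 0.34, Klk1 and Muc2 had 0.28 and 0.26, and Rep15 had 0.19. Muc13 was the exception, with an SD of 0.09 at percentile 17.1.

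The genes did not vary as 1 block. TG-4 was the highest TG library for 8 of the 10 genes and the lowest for Muc13, and TG-2 was the lowest TG library for 7. WT-2 was the highest WT library for Muc2, Clca1 and Klk1 and the lowest for Tff3, Fcgbp, Zg16 and Agr2. These ranks are in CPM with TMM factors. On the scale of total counts, TG-4 was the highest for 6 genes and TG-2 the lowest for 6, and WT-2 was the highest for 5, with Rep15 and Muc13 added, and the lowest for 3, without Agr2. Across the 8 libraries, Pearson r of log2 CPM was highest between Fcgbp and Tpsg1 (0.83), Tpsg1 and Rep15 (0.77) and Agr2 and Tpsg1 (0.75). It was lowest between Zg16 and Muc13 (-0.59), Klk1 and Muc13 (-0.58) and Muc2 and Zg16 (-0.55). These values describe 8 libraries that share a scaling step and hold both genotypes.

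**Figure D3:**
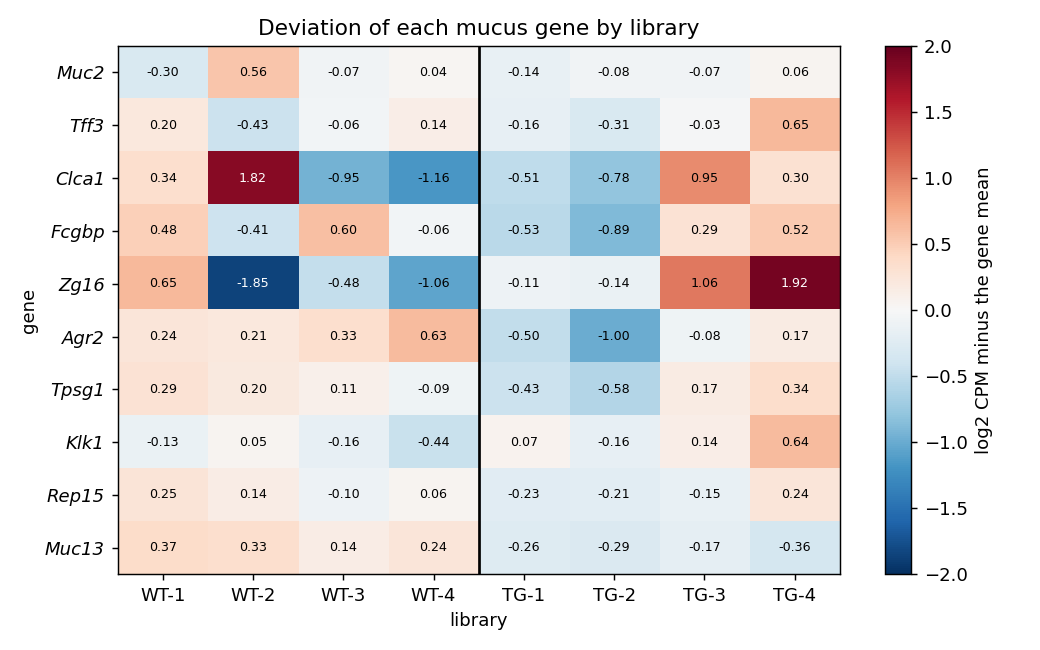
Log2 CPM of each mucus gene minus its mean over the 8 libraries, with WT libraries on the left and TG libraries on the right, red above and blue below the mean. In WT-2 Clca1 is at 1.82 and Zg16 at -1.85, and Muc13 is above its mean in all WT libraries and below it in all TG libraries.

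Outside the list, the tested genes with a mean log2 CPM of at least 3 whose pattern was most like that of Muc2 included Map3k7, Zbtb41, LTO1 and Golga5, with Pearson r of 0.945 to 0.972 over 8 libraries. For Clca1 they were Cxxc1, 4933406C10Rik, Ccdc93, Myo15b and Tstd2, with r of 0.882 to 0.965. Their own levels moved little, such as 30.7 to 40.2 CPM for Map3k7 and 65.2 to 82.1 CPM for Cxxc1. None was called between TG and WT, and their edgeR adjusted p were 0.541 to 0.946. They are the highest r of many genes compared over few libraries.

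The change between TG and WT was also read within the libraries without and with Y-linked counts, which held 2 TG and 2 WT libraries each. Muc13 was lower in TG in both, with log2 fold changes of -0.63 ± 0.17 and -0.45 ± 0.17 (SE) and edgeR adjusted p of 0.04 and 0.215. Agr2 was at -0.96 ± 0.19 and -0.43 ± 0.19 (SE), with edgeR adjusted p of 0.00897 and 0.258. With Y-linked counts as a covariate over all 8 libraries, Agr2 had a log2 fold change of -0.70 and an edgeR adjusted p of 0.0071, and Muc13 had -0.54 and 0.00588. Within the libraries without Y-linked counts, 3 of the 10 genes were lower, Agr2, Tpsg1 and Muc13, where 5.29% of all genes tested there were lower. Within those with Y-linked counts, 1 was higher, Clca1, where 0.940% of all genes were higher.

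Clca1 had opposite signs in these sets. Without Y-linked counts it was at 33.8 and 28 CPM in TG-1 and TG-2 and at 60.9 and 171 CPM in WT-1 and WT-2, or -1.91 ± 0.69 on the log2 scale (SE, edgeR adjusted p = 0.259). With them it was at 93.4 and 59.3 CPM in TG-3 and TG-4 and at 25 and 21.5 CPM in WT-3 and WT-4, or 1.72 ± 0.21 on the log2 scale (SE, edgeR adjusted p = 0.00955). Tpsg1 was at -0.75 ± 0.15 and 0.25 ± 0.13 (SE), and Klk1 at -0.004 and 0.71, with SEs of 0.15 and 0.17. Zg16 was at -0.00028 and 2.30, with SEs of 1.09 and 0.38, and was called in neither set. The interaction term, which tests the difference between the sets, was fitted above 0 for all 10 genes and for 49.8% of all tested genes. It was 3.63 ± 0.80 (SE) for Clca1 and 1.00 ± 0.19 (SE) for Tpsg1. Their unadjusted p were 0.00719 and 0.000141 by the edgeR model over all genes, and 0.668 and 0.22 after adjustment. None of the 10 genes passed, and 4 had an unadjusted p below 0.05 (Clca1, Tpsg1, Klk1 and Rep15), where 5.73% of all genes did. The 10 genes were measured in the same libraries and are not independent. Sex and anything else that differs between replicates 1 and 2 and replicates 3 and 4 cannot be told apart here.

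**Figure D4:**
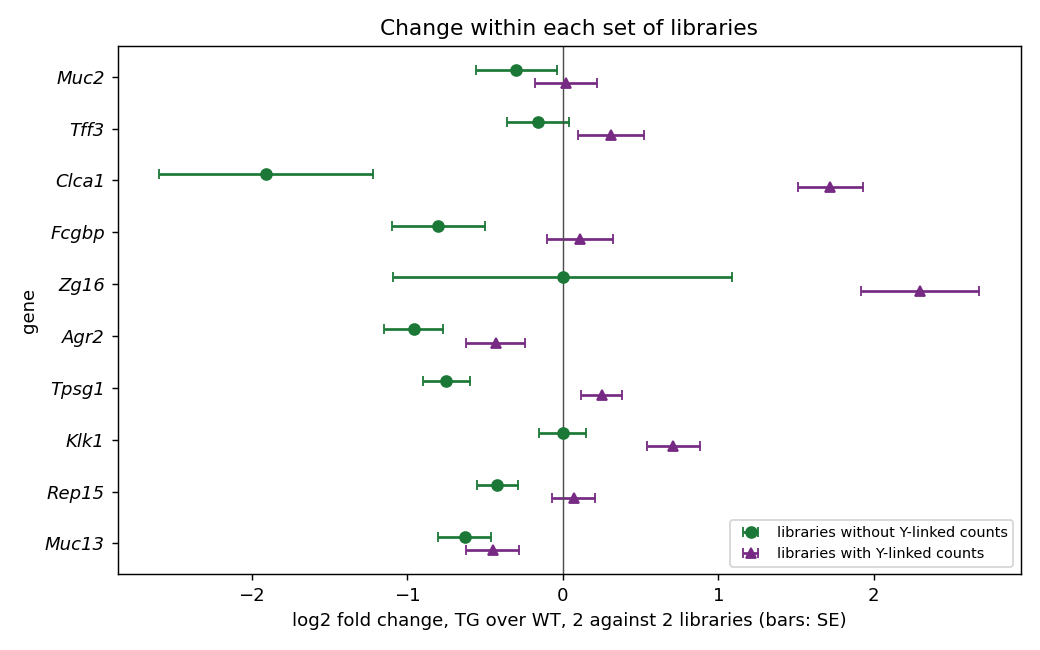
Log2 fold change of TG over WT with its SE for each mucus gene, within the 4 libraries without (green circles) and the 4 with Y-linked counts (purple triangles). Muc13 and Agr2 lie below 0 in both sets, and Clca1 lies at -1.91 and 1.72.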

How the data were processed

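Processed data of 8 libraries of sorted mouse PCs were used, 4 TG and 4 WT, with groups taken from the labels. A single table of raw counts per Ensembl gene ID was deposited by the authors, without normalization. The submitters' processing notes name FastQC 0.12.0, STAR 2.7.0a, DESeq2 and the mm39 build, while the study's methods name another release of STAR. No source used here gives the counting tool, the strand setting or the handling of reads with several alignments for this table, and these choices could shift genes with paralogs or antisense partners. Symbols, positions on GRCm39 (the same assembly as mm39) and exon lengths were added from GENCODE M39, which matched 54749 of 55414 IDs. Promoter windows were taken from RefSeq (GRCm38.p6 table) and placed on GRCm39 by exact match.

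Counts were tested in R 4.3.3 with edgeR 4.0.16 (TMM factors, default filter by group, robust quasi-likelihood F test, Benjamini-Hochberg adjustment over 11929 genes), with the group as the only term. Standard errors were derived from the fold change and its F statistic. Log2 CPM used a prior count of 2. Replicates of a group differed beyond sampling noise, with a chi-square per degree of freedom of at least 5.20. They were counted separately, although this value does not show that they came from separate mice. In simulated data for TG against WT with 200 of 11929 genes changed by a log2 fold change of 1, 88% were recovered, and 3.3% of calls were false. Recovery of the mucus genes by themselves was not tested, so the 88% does not show that those not called were unchanged. Clca1 and Zg16 had within-group SDs of log2 CPM of 1.12 and 1.02, against a median of 0.13 over the compared genes. Of the mucus genes, only Muc13, at 0.09, lay below this median.

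Alternatives were DESeq2 1.42.0, limma 3.58.1 (voom with quality weights), other factors and filters, a replicate block, a covariate for Y-linked counts, each set of libraries alone, a fold-change threshold and leaving out each library. The genes named were all 10 members, from each further list up to 4 genes with the smallest p (none was named from lists with no call among cell type markers), Lyz1, Itln1 and Mmp7, the genes most like Muc2 and Clca1, and close paralogs. A gene among those most like Muc2 is not reported here. Genes named beyond that were chosen after their values were seen. The 10 genes and the lists were chosen with earlier results of these data known.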

Additional observations from a re-analysis of the deposited data

Results flagged for a closer look

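In 78 groups of 4 libraries, from 39 mucus, goblet and mucin genes with at least 10 counts in a library, 6 single libraries stood far from the other 3. For independent and normally distributed values, chance gives about 1 in 20 groups, or 3.9. Counts near 0 and genes high in the same library do not meet this, so the 6 flags were not tested against chance. Rep15 was at 67.4 CPM in TG-4, against 48.6 to 51.4 CPM in the other TG libraries, and Creb3l4 was at 106 CPM in TG-4, against 90.3 to 92.7 CPM. These values are in CPM with TMM factors. By total counts Rep15 was at 64.8 CPM in TG-4, against 50.1 to 56.2 CPM, and did not stand apart by the same measure. The other flags, Creb3l4 and those that follow, were read with TMM factors only. Whether they hold by total counts was not tested. Muc3a was at 112 CPM in WT-2, against 51.8 to 56 CPM in the other WT libraries. Tff2, a trefoil peptide gene of stomach and Brunner's glands, was at 13.8 CPM in WT-4, against 0.139 to 0.803 CPM, and Muc6, a gel-forming mucin gene of the same glands, was at 2.38 CPM there, against 0.0669 to 0.24 CPM. Muc6 was also at 0.339 CPM in TG-3 and listed at 0 in the other TG libraries, which by itself gives a flag. Muc6 reached 10 counts only in WT-4, so that it was examined only because of that library. Rep15, Creb3l4 and Muc3a were not called between TG and WT, Tff2 and Muc6 did not pass the filter on low counts, and the cause was not tested.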

How the results depend on the processing

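Muc13 was lower in TG under all 19 alternatives, at -0.63 to -0.42, and was not called only within the libraries with Y-linked counts (-0.45). Of 190 member values under alternatives, 168 kept their direction and side of the threshold, 1 lost its call, 14 changed sign and 8 became called, of which 1 (Clca1 in the libraries with Y-linked counts) also changed sign. With total counts the median of all genes was 0.12 and no member changed sign.

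Deviations of same-numbered TG and WT libraries correlated at 0.0762, 0.0666, 0.286 and 0.231. Libraries with different numbers were not compared, so these values do not show whether the replicate numbers pair the libraries. With the replicate block 2 mucus genes were lower (Muc13 and Agr2), and Clca1 was at 0.0023. The 1 lower gene became 2 without a filter and with the Y-linked covariate, 3 within the set lacking and 0 within the set having Y-linked counts, 0 when a log2 fold change of 1 or more was required, and 1 to 2 when a library was left out, with Agr2 added without TG replicate 4. The 0 higher genes became 1 without a filter (Klk1) and 1 in the libraries with Y-linked counts (Clca1). 

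Signs changed in the libraries with Y-linked counts for Muc2 (0.02), Clca1 (1.72), Fcgbp (0.11), Tpsg1 (0.25) and Rep15 (0.07), in those without for Tff3 (-0.16), Zg16 (-0.00028) and Klk1 (-0.004), with voom for Clca1 (0.14), without WT replicate 2 for Muc2 (0.05), Tff3 (-0.01) and Clca1 (0.59), and without TG replicate 4 for Tff3 (-0.15). With single libraries left out, Muc2 ranged from -0.26 to 0.05, Tff3 from -0.15 to 0.22 and Clca1 from -0.79 to 0.59. Further goblet genes, 3 higher and 3 lower, became 1 and 1 with Y-linked counts, 0 and 1 with the fold threshold and 1 lower with total counts. They were 3 higher and 1 to 3 lower when a library was left out, the fewest lower without TG replicate 2. Over all genes, 985 higher and 1151 lower became 500 and 638 without and 113 and 104 with Y-linked counts, 244 and 115 with the fold threshold, and 262 lower with total counts. They were 485 to 1045 higher and 550 to 1183 lower when a library was left out, with both counts lowest without TG replicates 1 and 2. The causes were not tested. The share of counts, -0.09 percentage points in TG against WT, was -0.16 outside the alpha-defensin genes and -0.01 with counts divided by length. With total counts, added after the data were seen, 1 mucus gene was lower without overlap in place of 2.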
